A study of Mus musculus with 6 samples.

Results

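The cytoplasmic ribosomal protein genes were followed across wild-type mouse stembryos. They were taken from the deposited table as the rows whose symbol begins with Rpl or Rps followed by a number, together with Rpsa, Rplp0, Rplp1 and Rplp2. A total of 500 or more UMIs was required and pseudogene rows ending in -ps were left out. Of 25595 genes, 85 met the rule, 35 named for the small subunit and 50 for the large subunit. Just inside the minimum were Rpl32l with 805 UMIs, Rps3a2 with 1888 and Rpl6l with 5745, and just outside it were Rpl10l with 59, Rpl39l with 40 and Rpl3l with 14. The 85 members were 0.332% of the rows and gave 25.3% of the 421595321 UMIs counted.

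Stembryos are aggregates of mouse embryonic stem (mES) cells, here of genotype wt, which elongate into a trunk-like structure after a pulse of a Wnt agonist. Single-cell libraries from whole stembryos were made 120 h after aggregation (2 libraries) and 96 h after aggregation (2 libraries), and 1 dissected pool at 120 h gave 1 library of anterior parts and 1 of posterior parts. Each library was a pool of many stembryos of 1 cell line, so the spread between libraries is a spread between pools, and the labels do not say whether the pools were separate cultures. At 120 h stembryos that had not elongated were discarded, which was not done at 96 h, so time and this selection cannot be told apart.

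The libraries held 2649 to 7887 cells with a median of 8723 to 22811 UMIs per cell. In whole libraries the median at 120 h was 16375 UMIs per cell in replicate 1 and 9662 in replicate 2, against 22811 and 8723 at 96 h. Replicate 1 of both times belonged to one batch and replicate 2 of both times to another, so equal numbers pair the libraries, while the dissected parts were in another batch. Of the 26968 cells, 75 barcodes occurred in more than 1 library. Classes follow the clusters named in the deposited annotation: neuromesodermal progenitors (NMP), spinal cord, presomitic mesoderm (PSM), determination front, somite and endoderm. Pluripotent cells with primordial germ cells reached 50 cells in no library and are not described. The names were set beside marker lists, and some classes held the markers of a neighbour. Msgn1, a PSM factor, was at 4.21 CPM or less in PSM cells. Spinal cord cells of the posterior part had 1029 CPM of NMP markers and 735 CPM of their own, where NMP cells of that part had 1491 CPM of NMP markers. In whole libraries at 120 h spinal cord cells had 490 and 508 CPM of NMP markers, against 1005 and 868 CPM in NMP cells. Sox2 stands in both lists. Determination front cells of the anterior part had 41.5 CPM of their own markers and 2023 CPM of somite markers. The first value lay below the 139 and 215 CPM in PSM cells of whole replicate 1 and the posterior part at 120 h. In the posterior part and the whole replicates, determination front cells had 384, 191 and 199 CPM of their own markers. The 8 NMP markers summed to 868 to 1491 CPM in NMP cells at 120 h, and the 8 somite markers to 1720 to 2061 CPM in somite cells. Determination front cells had 1763 to 2275 CPM of somite markers and lay above the somite cells in each library. The somite list thus does not separate somite from determination front cells. Markers of endothelium, heart and neural crest summed to at most 4.67, 9.40 and 1.17 CPM in any class.

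The ribosome reads messenger RNA in its small subunit and joins amino acids in its large subunit. Its proteins are needed in nearly equal numbers and are among the most abundant products of growing cells. Many of their messenger RNAs begin at the cap with a C followed by a run of pyrimidines, the TOP (terminal oligopyrimidine) motif, through which mTOR signalling and the protein Larp1 control their translation. Stem cells and progenitors of the embryo make ribosomes at a high rate, and Myc proteins are known to raise transcription of ribosomal protein and ribosome biogenesis genes.

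The start of the transcript is shown for 7 members named below that hold a pyrimidine run there, chosen for that run, as 10 bases before the RefSeq start and 20 bases from it, on the GRCm38.p6 build. Capitals mark the longest run that opens with C and continues with 4 or more C or T bases, and the printed 11th base is the annotated start. Each window lies across the promoter and the first exon of its gene. Rpl10, Rpl41, Rps28, Rpl4 and Rps3a1, also named below, held no such run in their windows, and Rps2 held one of 6 bases.
Rps12, chr10:23787190-23787219, minus strand: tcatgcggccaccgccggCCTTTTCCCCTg
Rps27, chr3:90213629-90213658, minus strand: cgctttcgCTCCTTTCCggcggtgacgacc
Rps27l, chr9:66946076-66946105, plus strand: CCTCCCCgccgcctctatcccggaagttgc
Rpl22l1, chr3:28805498-28805527, plus strand: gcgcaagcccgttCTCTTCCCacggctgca
Rpl39, chrX:37085203-37085232, minus strand: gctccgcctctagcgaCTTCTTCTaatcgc
Rpl13a, chr7:45128726-45128755, minus strand: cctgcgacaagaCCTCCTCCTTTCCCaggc
Rps26, chr10:128626487-128626516, minus strand: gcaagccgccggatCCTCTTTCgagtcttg

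Of the 85 members, 61 had a promoter in the RefSeq table. A C followed by 4 C or T bases stood at the annotated start in 14 of them (23.0%), against 3.01% of 27025 genes. Within 10 bases of the start on either side such a run was present in 37 members (60.7%), against 34.4% of all genes. The letters CGGAA, read on either strand of the 250 bases before the start, occurred in 48 members (78.7%), against 27.9% of all genes. These matches describe the sequence only. The run of Rps27 spans the start, while that of its paralog Rps27l ends before the start shown, and the window of another annotated start of Rps27l, at chr9:66946403-66946432, held none.

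Levels are given as CPM, the UMI count of a gene scaled to the library total with TMM factors. A UMI marks 1 captured 3′ end, so that levels are not divided by gene length. The median member averaged 2969 CPM over the 4 whole libraries, and 72 of 85 members were above 1000 CPM. Rpl41, which encodes a very short basic peptide of the large subunit, was the most abundant, with 8350 and 7428 CPM at 120 h, against 8568 and 8929 CPM at 96 h. Rpl32, Rps20 and Rpl23 were also among the 5 highest, with means of 6170, 6046 and 5898 CPM. The lowest were Rpl32l, Rps3a2, Rpl6l, Rpl29 and Rpl7l1, with 3.59, 5.13, 17.7, 72.5 and 156 CPM. The 5 members with most UMIs gave 13.4% of all member UMIs, and the small subunit gave 47.7% to 48.5% in every library.

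Some members are copies whose reads may not be separable from those of a near-identical gene, and their levels are uncertain. The mm10 annotation (GENCODE M21) calls Rpl32l, Rpl6l, Rps3a2 and Rps3a3 processed pseudogenes and Rps4l a transcribed processed pseudogene. Rps3a3 had 713 and 394 UMIs per 100 of Rps3a1 in whole libraries at 120 h, against 593 and 369 at 96 h, with 975 in the posterior part and 999.7 in the anterior part. This ratio moved more with the batch than with time. Rps3a2 had 1.29 and 0.133 UMIs per 100 of Rps3a1 at 120 h and 1.29 and 0.157 at 96 h. The rows ending in -ps, 235 in number, held 0.816 UMIs per 100 UMIs of the members.

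The first question was how the share of the transcriptome devoted to ribosomal proteins differed between the times. At 120 h the members gave 24.8% and 22.1% of all UMIs in whole libraries, against 28.0% and 25.0% at 96 h. Means were 23.4% ± 1.94 at 120 h and 26.5% ± 2.16 at 96 h (SD, n = 2 each). Within a batch the share was lower at 120 h by 3.23 percentage points in replicate 1 and by 2.91 in replicate 2. Replicate 2 was in turn below replicate 1 by 2.74 points at 120 h and 3.06 points at 96 h, so that the highest value at 120 h lay just below the lowest at 96 h and the spread between batches was as wide as the difference between times. Median UMIs per cell moved with the share between replicates, and the part of depth in it was not tested.

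The same difference was present inside classes. In NMP cells the share was 24.1% and 21.5% at 120 h, against 27.8% and 24.8% at 96 h. PSM cells gave 24.7% and 21.5% at 120 h, against 28.4% and 25.6% at 96 h. In neither class did the times overlap. These classes hold different clusters at the 2 times: at 120 h they are mostly NMPs C and late PSM, and at 96 h NMPs A, NMPs B and early PSM. The cluster of NMP cells at 96 h also differed with the batch. In replicate 1, 2765 of 2832 were NMPs A, and in replicate 2, 1632 of 1956 were NMPs B. Among the other classes at 120 h, spinal cord cells gave 24.5% and 22.5% in whole libraries and somite cells 25.8% and 22.6%. In the dissected pool the anterior part gave 24.5% and the posterior part 24.1%, with 1 library each. Endoderm, seen with 183 cells in the posterior part only, gave 23.6%. These endoderm cells had 945 CPM of NMP markers beside 1565 CPM of their own markers. No test was run on the share.

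**Figure D1:**
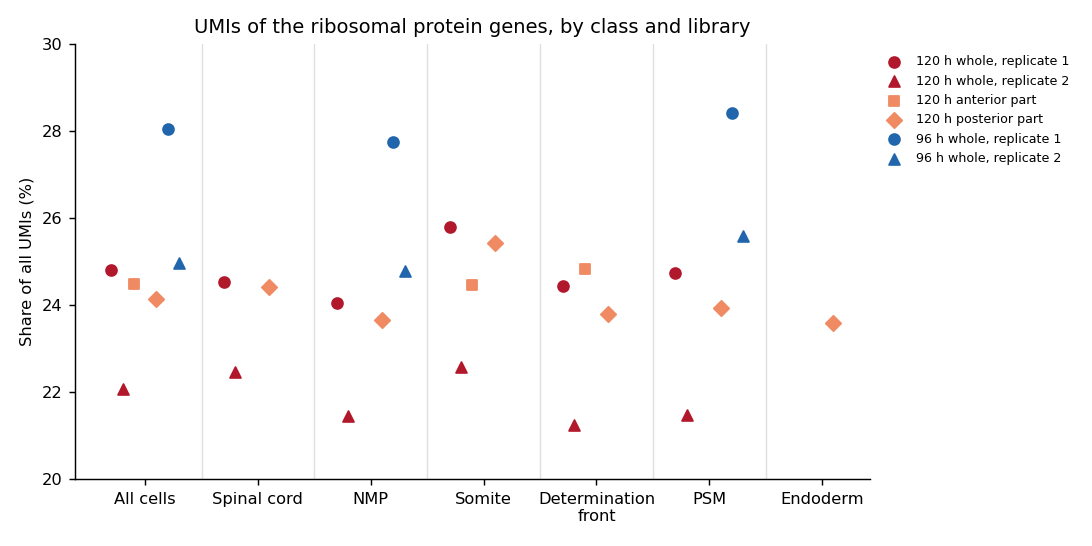
Share of all UMIs from the 85 ribosomal protein genes (y axis, percent, starting at 20) in all cells and in each class, with 1 point per library of 50 or more cells of that class. Within each replicate number the 120 h point lies below the 96 h point, with 24.8% against 28.0% and 22.1% against 25.0% in all cells, and the same order within NMP and PSM cells.

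Clusters within a class also differed. Spinal cord A gave 26.0% and 23.6% in whole libraries and 24.5% in the posterior part, against 23.6%, 21.9% and 24.2% for spinal cord B. Somite A gave 26.0% and 23.0% in whole libraries and 25.3% in the anterior part, against 25.4%, 20.8% and 23.5% for somite B. Cells assigned by the authors to the G2M phase had a lower share than cells assigned to G1 in 6 of 6 libraries, by 0.768 to 1.97 points. In the 19 sums of 1 class in 1 library with both phases, the share was lower in G2M in 19, with a median of -1.23 points and a range of -2.65 to -0.595. Phases were themselves called from expression.

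The second question was which members changed with time. All 85 members passed the filter on low counts in every comparison. In whole libraries 80 of 85 had a negative log2 change of 120 h over 96 h, with a median of -0.28 and a range of -0.60 to 0.10, against a median of 0.02 over 18114 genes. Without a block for the replicate, edgeR's quasi-likelihood test called 0 members lower and 0 higher, against 0.265% and 0.58% of all genes. At an unadjusted p under 0.05 there were 2 members, against 2739 of 18114 genes. DESeq2 called 1 member lower, Rps12, and 0 higher, against 2.95% and 3.43% of all genes. With the replicate as a block, which the shared batches allow, edgeR called 12 members lower and 0 higher, against 8.15% and 8.89% of all genes. They included Rps12, Rplp1, Rps2, Rps3a1, Rpl4, Rpl23a, Rps3, Rpl17, Rpl30, Rps4l and Rpl27a.

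Rps12, a protein of the beak of the small subunit, had the most negative change among the members above 1000 CPM and was called lower in the fit with the block. It stood at 4371 and 3846 CPM at 120 h, against 6239 and 6080 CPM at 96 h. Both libraries at 120 h lay below both at 96 h. The log2 change was -0.58 ± 0.22 (edgeR adjusted p = 0.309), and -0.59 ± 0.11 with the replicate block (edgeR adjusted p = 0.0120). Here and below, ± after a log2 change is a standard error derived from the edgeR test, not an SD over libraries. In NMP cells it also had the most negative change among the members called with the block, at 4092 and 3681 CPM at 120 h, against 6189 and 6259 CPM at 96 h (log2 change -0.68 ± 0.19, edgeR adjusted p = 0.280, whereas the block gave 0.0213). In PSM cells Rps12 had 4153 and 3780 CPM at 120 h, against 6214 and 5999 CPM at 96 h, a log2 difference of -0.62 ± 0.23 (edgeR adjusted p = 0.408, whereas the block gave 0.00504).

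Rplp1, an acidic protein of the stalk that recruits elongation factors, had 5159 and 3341 CPM at 120 h, against 6647 and 5153 CPM at 96 h. The groups overlapped by a few CPM, and within each batch 120 h was lower (edgeR adjusted p = 0.574 without the block and 0.0284 with it). Rps2, which lines the entry of messenger RNA, had 3115 and 2712 CPM at 120 h, against 4707 and 3315 CPM at 96 h. Rpl4, which reaches into the peptide exit tunnel, had 1556 and 1397 CPM at 120 h, against 2122 and 1793 CPM at 96 h. For Rps2 and Rpl4 both libraries at 120 h lay below both at 96 h. Rps3a1 had 579 and 524 CPM at 120 h, against 880 and 635 CPM at 96 h, with the limit that most reads of this gene may have gone to Rps3a3.

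No member was called higher, and the largest positive values belonged to Rps29, Rps28 and Rpl35. Rps29, a zinc-binding protein of the small subunit head, had 4071 and 6120 CPM at 120 h, against 3522 and 6004 CPM at 96 h. Rps28, near the exit of messenger RNA, had 2980 and 3591 CPM at 120 h, against 2671 and 3608 CPM at 96 h. Rpl35, beside the tunnel exit, had 1634 and 1342 CPM at 120 h, against 1622 and 1232 CPM at 96 h. In all 3 the libraries of both times overlapped, and the log2 changes were 0.10, 0.07 and 0.06. Rpl38, whose loss in mouse mutants alters the patterning of the axial skeleton, had a log2 change of 0.03 ± 0.22, and Rpl39, which lines the exit tunnel, one of 0.01 ± 0.22 (edgeR adjusted p = 0.978 and 0.995).

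**Figure D2:**
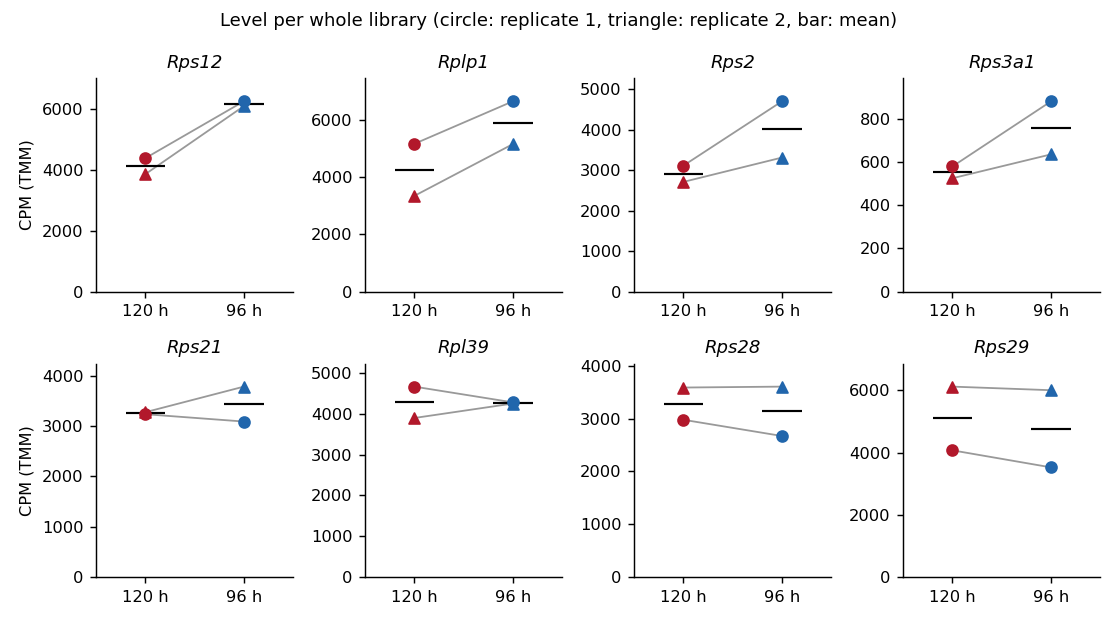
CPM with TMM factors (y axis, from 0) of 8 members in the 4 whole libraries, with 120 h left of 96 h in each panel, circles for replicate 1, triangles for replicate 2, a line joining libraries of 1 batch and a bar at the mean. Rps12 was lower at 120 h in both pairs (4371 and 3846 CPM against 6239 and 6080 CPM), whereas Rps29 was at 4071 and 6120 CPM against 3522 and 6004 CPM.

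The relation of change to coding length differed between the batches. Over the 80 members with an annotated coding length, the log2 change in whole libraries had r = -0.59 (rho = -0.56) with the log2 of that length. In the pair of replicate 1 r was -0.76, and in the pair of replicate 2 it was -0.01. The 20 shortest members had a median of -0.07 in replicate 1 and -0.27 in replicate 2, and the 20 longest -0.45 and -0.22. These are correlations across genes, which share libraries and are not independent, and no test was run. Between replicates of 1 time the same measure was -0.06 at 120 h and -0.48 at 96 h. Median UMIs per cell differed within each of these pairs, and the part of depth in the relation was not tested. Rps12 was lower in both pairs, with log2 differences of -0.51 in replicate 1 and -0.66 in replicate 2.

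**Figure D3:**
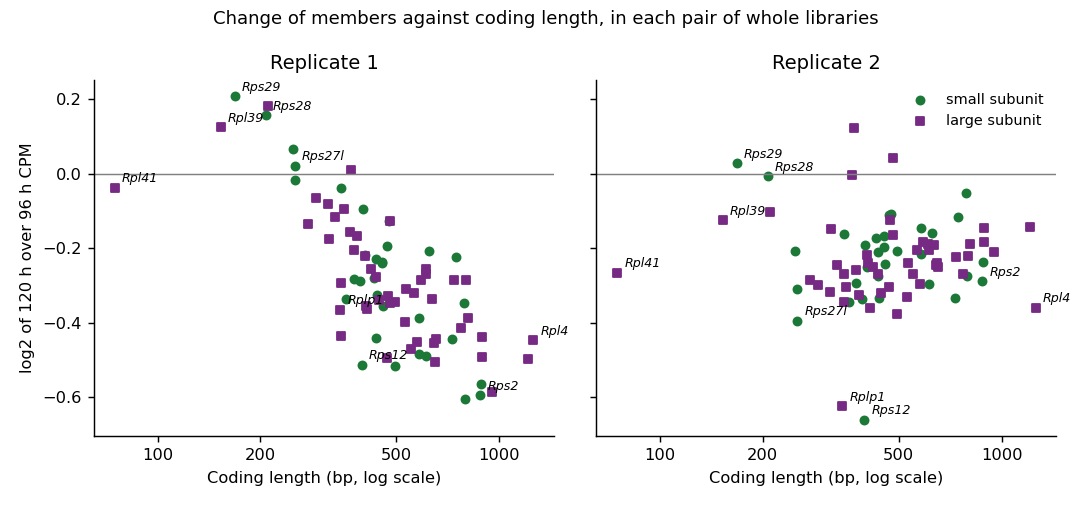
log2 of 120 h over 96 h CPM (y axis) against coding length in bp (x axis, log scale) for 80 members, in the pair of replicate 1 (left) and of replicate 2 (right), with circles for the small and squares for the large subunit. Longer members fell more in replicate 1 (r = -0.76) and not in replicate 2 (r = -0.01), and Rps12 lies low in both.

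The shares of classes changed with time too: the 8 somite markers summed to 1014 and 676 CPM in whole libraries at 120 h, against 76.5 and 67.9 CPM at 96 h. In whole libraries more cells of a class and more RNA per cell cannot be told apart, so the same comparison was made inside NMP and PSM cells. In NMP cells 83 of 85 members had a negative log2 change, with a median of -0.31 against 0.00 over 15584 genes. edgeR called 0 members higher and 0 lower, where 0.00642% and 0.0% of all genes were. At an unadjusted p under 0.05 there were 4 members, against 1800 of 15584 genes. DESeq2 called 1 member lower and 0 higher, against 1.51% and 1.35% of all genes. With the replicate block 3 members were called lower, Rps12, Rps3a1 and Rps4l, and 0 higher, against 3.55% and 3.65% of all genes. Members were thus called no more often than genes at large in NMP cells. Markers of other classes moved with time in NMP cells. Pluripotency markers summed to 4.97 and 6.12 CPM at 120 h, against 11.1 and 105 CPM at 96 h. Endoderm markers summed to 17.3 and 20.4 CPM at 120 h, against 95.6 and 138 CPM at 96 h. These lists were lower at 120 h in both pairs, and the next were higher. Spinal cord markers summed to 537 and 667 CPM at 120 h, against 242 and 298 CPM at 96 h. Somite markers summed to 83.1 and 77.8 CPM at 120 h, against 11.2 and 20.5 CPM at 96 h. Their part in the result was not tested. Rpl10, which joins the large subunit late in its maturation, had 1799 and 1550 CPM in NMP cells at 120 h, against 2702 and 1978 CPM at 96 h, a difference not called with the block (edgeR adjusted p = 0.0533). In PSM cells 85 of 85 changes were negative, with a median of -0.36 against 0.00 over 12021 genes. edgeR called 0 members there, where 0.133% of all genes were called lower and 0.299% higher. At an unadjusted p under 0.05 there were 2 members, against 1187 of 12021 genes. DESeq2 called 0 members, against 0.482% of all genes lower and 0.923% higher. With the replicate block 39 members were called lower in PSM cells and 0 higher, against 3.23% and 3.66% of all genes. These included Rplp0 and Rplp2 of the stalk, Rpl5 and Rpl11, which bind 5S RNA, and Rpsa. In PSM cells too other markers moved with time, and their part in these calls was not tested. Somite markers summed to 549 and 432 CPM in PSM cells at 120 h, against 147 and 249.7 CPM at 96 h, and pluripotency markers to 3.48 and 5.84 CPM, against 8.92 and 59.4 CPM. Spinal cord markers summed to 165 and 199.9 CPM in PSM cells at 120 h, against 98.8 and 98.7 CPM at 96 h, and determination front markers to 139 and 55.8 CPM, against 59.7 and 14.5 CPM.

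Counted by pairs, 77 members were lower at 120 h in both batches in whole libraries and 2 were higher, Rpl35 and Rps29, against 34.8% and 38.2% of all genes. In NMP cells 76 were lower and 0 higher in both batches, against 34.3% and 34.4%, and in PSM cells 78 were lower and 0 higher, against 31.7% and 32.5%. The fits share the same 4 libraries and are not independent of each other. The median change depended on which library was left out, and in whole libraries it was -0.10 once the first 96 h library or the second 120 h library was dropped, -0.46 once the first 120 h library was, and -0.47 once the second 96 h library was. In NMP cells these medians ran from -0.14 to -0.48 and in PSM cells from -0.21 to -0.54.

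Other genes of the translation machinery were read beside the members. Of 17 elongation factors and other TOP transcripts, 17 had a negative change in whole libraries, with a median of -0.35, and 0 were called by edgeR without the block and 8 with it. Eef1a1, which brings aminoacyl-tRNA to the ribosome, had 7217 and 6540 CPM at 120 h, against 10293 and 8148 CPM at 96 h, and its libraries did not overlap. Eef2, the translocase of the ribosome, had 815 and 810 CPM at 120 h, against 1375 and 1121 CPM at 96 h (log2 change -0.62 ± 0.18, edgeR adjusted p = 0.205, whereas the block gave 0.00788). Of 28 ribosome biogenesis genes, 27 were negative, with a median of -0.35, and 0 and 15 were called lower. The 78 mitochondrial ribosomal proteins had a median of -0.07, with 60 negative, and 3 were called lower with the block. Of the ribosomal proteins that the rule did not take, Rack1, a scaffold on the small subunit, had 2582 and 2763 CPM at 120 h, against 3790 and 3450 CPM at 96 h, and its libraries did not overlap. Fau, which encodes Rps30 fused to a ubiquitin-like protein, had a log2 change of -0.25 ± 0.27 and was not called. Mycn and Myc, the regulators named above, had log2 changes of -0.38 ± 0.19 and 0.01 ± 0.42 (edgeR adjusted p = 0.445 and 0.995).

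The third question was how members differed between classes at 120 h, in spinal cord over NMP cells and in somite over PSM cells. UMIs were summed per class in 3 pools, the whole replicates and the dissected pool. In the dissected pool nearly all somite cells came from the anterior library and nearly all PSM, NMP and spinal cord cells from the posterior library, so somite against PSM cannot be told apart from library there. The classes were defined by clustering the same cells, and a p measures how a difference repeated over pools.

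In spinal cord over NMP cells, 82 of 85 members had a positive log2 change, with a median of 0.11 against 0.01 over 16057 genes. In every pool 76 were higher and 2 lower, against 24.7% and 19.9% of all genes. edgeR called 5 higher and 0 lower, against 3.51% and 3.55% of all genes. These were Rpl22l1, Rps26, Rps21, Rplp1 and Rpl41. The calls were sensitive to the settings: 0 without pool 1, 0 without pool 2 and 1 without pool 3. Of all genes, 1.48%, 1.29% and 5.02% were then called higher. Rpl22l1, the paralog of Rpl22, an RNA-binding protein that in mouse represses its paralog, had 1264, 716 and 932 CPM in spinal cord and 1141, 607 and 838 CPM in NMP cells, in pools 1, 2 and 3. It was higher in spinal cord in each pool, though the groups overlapped across pools (log2 change 0.18 ± 0.05, edgeR adjusted p = 0.0411). Rps26, which touches messenger RNA at its exit channel, had 4304, 4052 and 3840 CPM in spinal cord and 3955, 3558 and 3342 CPM in NMP cells (log2 change 0.17 ± 0.05, edgeR adjusted p = 0.0297). Rps21 had 3241, 3570 and 4225 CPM in spinal cord and 3034, 3135 and 3656 CPM in NMP cells. Rplp1 had 5520, 3633 and 6004 CPM in spinal cord and 5056, 3253 and 5411 CPM in NMP cells. Rpl41 had 8613, 8052 and 10998 CPM in spinal cord and 8044, 7101 and 10073 CPM in NMP cells. These were again higher in each pool while the groups overlapped across pools, with log2 changes of 0.16 ± 0.05, 0.15 ± 0.04 and 0.14 ± 0.04. Mycn was lower in spinal cord, at 24.7, 32.1 and 35.2 CPM against 52.3, 62.0 and 56.8 CPM in NMP cells (edgeR adjusted p = 0.0168). The 78 mitochondrial ribosomal proteins moved the same way as the members, with 73 positive and 5 negative, a median of 0.07 and 3 called higher.

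In somite over PSM cells, 69 of 85 members had a positive log2 change, with a median of 0.06, and edgeR called 12 higher and 1 lower, against 17.2% and 18.3% of all genes. In every pool 24 were higher and 3 lower, against 28.7% and 25.7% of all genes. By either count the members were higher or lower no more often than genes at large. Those called higher, given as single genes, included Rps27, Rpl10, Rpl13a, Rpl39, Rps29, Rps21, Rps12, Rpl23, Rps20, Rpl23a and Rpl12. Without pool 1, 2 or 3 in turn 13, 6 and 19 were called higher, against 14.8%, 14.2% and 12.0% of all genes. The median over members was 0.10 in pool 1, 0.14 in pool 2 and -0.05 in pool 3. Rps27 had 2916, 2748 and 2689 CPM in somite and 2576, 2336 and 2207 CPM in PSM cells. Its somite values all lay above its PSM values (log2 change 0.23 ± 0.05, edgeR adjusted p = 0.000663). Rpl39 had 5073, 4252 and 4383 CPM in somite and 4532, 3598 and 3752 CPM in PSM cells and was higher in each pool, though across pools the classes overlapped (edgeR adjusted p = 0.000713). Rpl13a, also known for binding to particular messenger RNAs outside the ribosome, had 3182, 2570 and 3419 CPM in somite and 2754, 2141 and 3035 CPM in PSM cells. Rps29, with no call over time, had 4470, 6560 and 5154 CPM in somite and 3906, 5581 and 4747 CPM in PSM cells. Both were higher in each pool, by 0.21 ± 0.04 and 0.18 ± 0.04 (edgeR adjusted p = 0.00107 and 0.00176). Rpl10 had 2318, 1807 and 2801 CPM in somite and 1910, 1457 and 2647 CPM in PSM cells, with the smallest difference in pool 3. Rps12, lower at 120 h in the fits with the block, was higher in somite cells, by 0.16 ± 0.04 (edgeR adjusted p = 0.00568).

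Rps27l was the member called lower. This paralog of Rps27 is known as a target of p53, and its product stands in for Rps27 in some ribosomes. It had 1491, 957 and 920 CPM in somite and 1626, 1048 and 1358 CPM in PSM cells (log2 change -0.27 ± 0.08, edgeR adjusted p = 0.0163). It was lower in every pool, with log2 differences of -0.13, -0.13 and -0.56, and most in the dissected pool. It was not called without pool 2, with a change of -0.33 (edgeR adjusted p = 0.0593), or without pool 3, with a change of -0.14 (edgeR adjusted p = 0.0800). Rps27l also had the widest spread of all members over the 5 classes at 120 h, with spinal cord highest and somite lowest on the mean over pools. The ratio of Rps27l to Rps27 UMIs was 51.1, 34.8 and 34.2 per 100 in somite and 63.1, 44.9 and 61.5 per 100 in PSM cells. The somite clusters differed in it: Rps27l had 1338, 711 and 730 CPM in somite B and 1627, 1033 and 1086 CPM in somite A, in the whole replicates and the anterior part. In CPM, somite A was not below late PSM in either whole replicate or in the posterior part. The lower Rps27l level of the class was thus seen in somite B and in the anterior library. Per 100 Rps27 UMIs, somite A had 53.2 and 35.6 in the whole replicates, against 63.2 and 44.2 in late PSM.

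**Figure D4:**
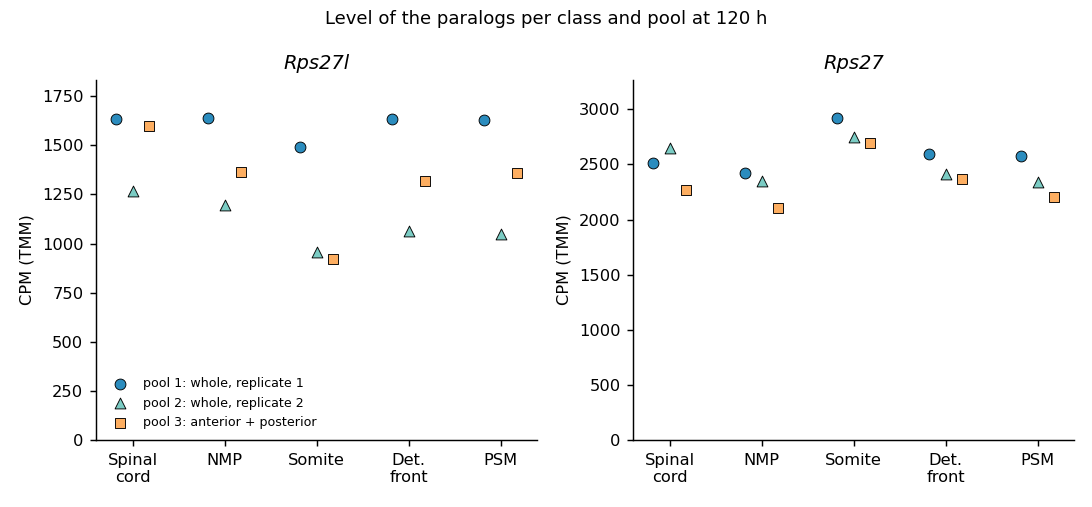
CPM with TMM factors (y axis, from 0) of Rps27l (left) and Rps27 (right) in 5 classes at 120 h, with 1 point per pool, circles for whole replicate 1, triangles for whole replicate 2 and squares for the dissected pool. In somite cells Rps27l was lowest in each pool (1491, 957 and 920 CPM) and Rps27 was highest (2916, 2748 and 2689 CPM).

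Of 28 ribosome biogenesis genes, 25 were called lower in somite over PSM cells, against 18.3% of all genes, with a median of -0.47. In every pool 25 were lower, against 25.7% of all genes, with medians of -0.30, -0.44 and -0.54 in pools 1, 2 and 3. Nop58, a core protein of box C/D snoRNPs, had 187, 261 and 230 CPM in somite and 266, 388 and 427 CPM in PSM cells. Dkc1, the pseudouridine synthase of box H/ACA snoRNPs, had 171, 165 and 168 CPM in somite and 222, 223 and 267 CPM in PSM cells. For Dkc1 the 2 classes did not overlap, and for Nop58 they did not either. Of 17 elongation factors and other TOP transcripts 2 were called higher, Eef1a1 and Tpt1, and 2 lower, Pabpc1 and Npm1. Of 9 snoRNA host transcripts 5 were called lower, and Mycn had 22.3, 33.4 and 11.0 CPM in somite against 81.9, 92.7 and 67.0 CPM in PSM cells. The lists were chosen with earlier results of these data known, and no test of a list was made. In spinal cord over NMP cells, 0 of the 28 biogenesis genes were called in edgeR, 18 were positive and their median was 0.04. Positive there too were 8 of 9 snoRNA host transcripts and 14 of 17 elongation factors and other TOP transcripts, with medians of 0.11 and 0.04.

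**Figure D5:**
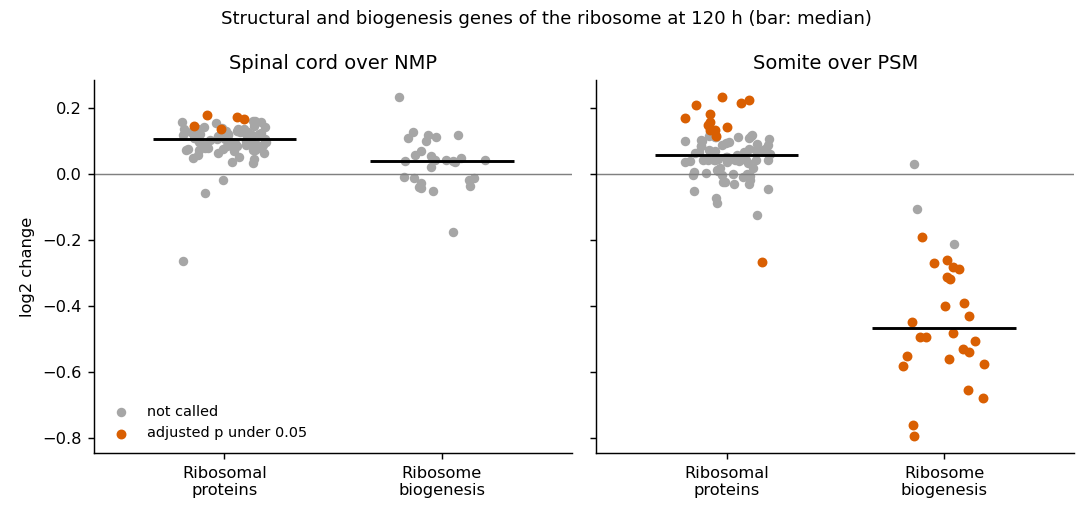
log2 change (y axis) in spinal cord over NMP cells (left) and somite over PSM cells (right) at 120 h for 85 ribosomal protein genes and 28 ribosome biogenesis genes, with bars at the median and coloured points at an adjusted p under 0.05. In somite over PSM cells the median was 0.06 for ribosomal proteins and -0.47 for biogenesis genes.

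Across the 5 classes, on means over pools, spinal cord had the highest level of 41 members and somite of 35, and NMP cells had the lowest of 55. After Rps27l the widest spreads were those of Rps3a2, at a level of 2.68 CPM, Rps2, Rps27 and Rpl39. Rps3a2 had only 0 to 10 UMIs per class in pools 2 and 3, so its spread rests on few counts. Rps2 was highest in spinal cord and lowest at the determination front, and Rps27 and Rpl39 were highest in somite and lowest in NMP cells. The remaining paralog pairs differed more between batches than between times. Rpl22l1 had 48.1 and 36.8 UMIs per 100 of Rpl22 at 120 h in whole libraries, against 47.7 and 29.4 at 96 h, and Rps4l had 4.56 and 6.02 per 100 of Rps4x at 120 h and 4.46 and 7.50 at 96 h.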

How the data were processed

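Per the file headers and labels, the deposited table held a UMI count per gene and cell in 6 libraries, which the authors had made with Cell Ranger 6.0 on the mm10 build, with cells filtered and clustered in Seurat 4.0.2, per the submitters' processing notes and methods. The deposited annotation gave a mitochondrial percent and an S and a G2M score per cell, a batch, a chemistry and a cluster. Totals of 26968 cells equalled the annotation. Since the study took doublets out through an upper UMI limit, no doublet caller was run.

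Counts were summed per library, class or pool and tested with edgeR 4.0.16 (R 4.3.3), with TMM factors and filterByExpr. P-values were adjusted over all genes by Benjamini-Hochberg and called under 0.05. DESeq2 1.42.0, other scalings, no filter, a UMI limit of 1.5 times the mean, the replicate block and leaving out each library were alternatives. The test was checked on simulated data. Time comparisons were fitted without the block. Replicate 1 of both times shared batch 1 and V3 chemistry, and replicate 2 batch 4 and V3.1. Differences between replicates at the 2 times correlated at 0.655, 0.576 and 0.452 over all genes in whole libraries, NMP and PSM cells. Over the 85 members these correlations were 0.919, 0.896 and 0.899, so the fits without the block carry this shared batch difference in their spread. The block leaves 1 residual degree of freedom among the 4 libraries.

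Named genes were paralogs, the 5 highest and lowest levels, up to 5 called each way per comparison (3 each way where none was called), the 5 widest class spreads, genes at the edge of the rule, and Fau, Rack1, Eef1a1, Eef2, Tpt1, Npm1, Mycn and Myc. Others named, as examples, were chosen after their values were seen. The members and lists were chosen with earlier results of these data known. Some genes that this rule names are not reported here.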

Additional observations from a re-analysis of the deposited data

How the results depend on the processing

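Leaving out mitochondrial UMIs, taking the median over cells or dropping cells above 1.5 times the mean UMI count moved the share by less than the spread between replicates. With the replicate block the members called lower at 120 h numbered 12 over whole libraries, 3 within NMP and 39 within PSM cells. They numbered 0 without the block, and DESeq2 called 1, 1 and 0. Of all genes, 8.15%, 3.55% and 3.23% were called lower with the block, and 2.95%, 1.51% and 0.482% in DESeq2. Leaving out a library leaves 1 library at that time, and the median change in PSM cells then ran from -0.21 to -0.54. For spinal cord over NMP, 16 were higher with DESeq2 size factors, against 3.78% of all genes, and 3 with no factors, against 2.45%. With library size free of members and mitochondrial genes 12 were higher, against 3.75%. Without the filter 0 were, against 2.08%, in DESeq2 21, against 3.73%, and with the UMI limit 1, against 3.23%. Without the pool block 0 were higher, against 0.237%, and without a pool 0 to 1, against 1.29% to 5.02%. For somite over PSM, the counts higher were 19, 26, 19, 36 and 19 under the first 5 of these. The shares of all genes called higher were 17.2%, 17.1%, 17.8%, 13.6% and 14.3%. Without the pool block 0 members were higher, against 5.57%, and without a pool 6 to 19, against 12.0% to 14.8%. The count lower was 2 with no factors, against 19.2% of all genes. It was 0 without the pool block, against 5.93%, and 0 to 1 without a pool, against 12.6% to 15.1%. Leaving out libraries turned the sign of Rps3a2 in whole libraries (-3.18 to 2.06), Rps29 in NMP (-0.35 to 0.46) and PSM cells (-0.39 to 0.42) and Rpl6l in PSM cells (-1.15 to 0.20). The cause was not tested. Rpl32l and Rps3a2 had few UMIs. In replicate 1, Rps3a2 had 1225 UMIs at 96 h and 602 at 120 h, and in replicate 2 it had 25 and 20. It had 3 in the anterior part and 13 in the posterior part, whose UMI total was similar to that of the first 96 h library. The part of depth or batch was not tested.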
